A study of Mus musculus with 2 samples.

Results

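Genes that drive cells through G1, copy DNA in S phase and carry out mitosis were examined in mouse liver under endotoxin injury, in a wild-type pool and in a pool labelled as knockout for Gbp5. The set was a list of 36 genes, all found among the 52636 Ensembl genes of the files: 13 regulators of G1 and of the step from G1 to S, 10 genes of DNA replication and 13 genes of G2 and mitosis. Of the 36, 28 had a mean over both libraries of 1 CPM (a gene's reads per 1000000 reads assigned to genes) or more, and so did 13453 genes in all. Those passing were 12 of 13 G1 genes, 10 of 10 replication genes and 6 of 13 mitotic genes. The 8 left under that limit were Birc5, Ccna2, Plk1, Cenpe, Ccnb1, Aurkb, Ccne2 and Bub1, at mean CPM from 0.923 down to 0.303. The lowest mean CPM among those that passed was 1.13.

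All mice were C57BL/6, 9 weeks old, and had been given D-galactosamine at 800 µg and lipopolysaccharide at 100 ng per g body weight 6 h earlier. The groups were wild type (WT) and GBP5-/- (KO), and both had received the same treatment. The sources used here do not say how the knockout was made. RNA of 4 livers was pooled per genotype and sequenced as 1 library, so there was no replicate spread, no test between genotypes and no p-value. Intervals below are exact 95% Clopper-Pearson intervals of the KO to WT ratio, conditional on the summed reads. They cover counting error only, and reads without molecular identifiers are not independent molecules. No untreated liver was analysed here.

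The eukaryotic cell cycle is driven by cyclin-dependent kinases, each of which needs a cyclin partner. In G1, D cyclins with Cdk4 or Cdk6 phosphorylate the retinoblastoma protein Rb1, which frees E2F factors to switch on genes for DNA synthesis; Cdk2 with E cyclins carries this further. In S phase the MCM helicase unwinds DNA and Pcna clamps the polymerases to it, and in mitosis Cdk1 with B cyclins and the Plk1 and Aurora kinases build and control the spindle. Hepatocytes of the adult liver are almost all at rest, and they re-enter the cycle after tissue loss or injury.

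The libraries held 19864848 WT and 15750875 KO reads, so that 1 read corresponded to 0.0503 and 0.0635 CPM, and 3 reads, the limit that a count of 0 allows, to 0.151 and 0.190 CPM. None of the 36 genes was at 0 in either library. Gbp5 itself had 3211 WT and 873 KO reads, 2.92-fold lower in CPM in the KO library but not absent. The ratio of KO to WT went with the GC content of the transcript over the 13436 passing genes with reads in both libraries, with a Spearman's rho across genes of -0.47; genes are not independent replicates of a condition. When genes were ordered by GC content and cut into 10 equal bins, the median log2 ratio ran from 0.29 in the lowest bin to -0.87 in the highest. Ratios are therefore also given after a correction by the median of genes of like GC content and length wherever it turns a direction, ends or adds a 2-fold difference, or moves an interval across 1.

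Hepatocyte markers were the highest of the marker lists, with Alb at 38384 CPM in WT and 69250 in KO. Summed over 8 hepatocyte markers, CPM was 53731 in WT and 90672 in KO, with 7 of 8 higher in KO. The levels of cell types that can hold dividing cells were not equal in the pools. Summed over 11 T and NK cell markers, CPM was 73.7 in WT and 33.7 in KO, with 9 of 9 passing markers lower in KO; over 8 Kupffer cell markers it was 1165 and 484, with 8 of 8 lower; over 8 B and plasma cell markers it was 37.4 and 23.4, with 6 of 7 lower. Summed neutrophil and progenitor markers were at 375.8 and 287.8 CPM, with 5 of 7 lower and 2 higher, and the most abundant, S100a9, was at 133.7 and 115.5 CPM. Sinusoidal endothelial markers were at 569.4 and 450.5 CPM, with 5 of 6 lower, and stellate cell markers at 806.3 and 759.6, with 4 of 6 lower. Erythroid markers went the other way, at 3736 and 5332 CPM, with 5 of 7 higher. Duct and gut-type epithelial markers stood at 165.7 and 533.6 CPM with 8 of 10 higher, mostly through Dmbt1 at 1.01 and 274.2 CPM. Of all passing genes, 7333 of 13453 were lower in KO. The marker values were not corrected for GC content or length. In bulk RNA, fewer cells of a type and less RNA per cell cannot be told apart, and the part of these shifts in the values below was not tested.

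The stretches upstream of 4 members are shown because 3 of them, Mki67, Ccnb2 and Rrm2, were past a 2-fold difference, and the mitotic kinase gene Cdk1, chosen after its values were seen, holds all 3 kinds of motif searched and had a ratio near 1. They are RefSeq sequences on GRCm38.p6, read 5′ to 3′ on the gene's strand, from the 250 bases before the RefSeq start with any bases inside an annotated exon of the gene removed. Capitals mark matches on either strand to the E2F words TTTCCCGC, TTTGGCGC and TTTCGCGC, the cell cycle homology region (CHR) word TTTGAA and the CCAAT box. Mki67 lies at chr7:135716380-135716629 on the minus strand, Ccnb2 at chr9:70421555-70421804 on the minus strand, Cdk1 at chr10:69352939-69353162 on the minus strand and Rrm2 at chr12:24708004-24708240 on the plus strand.
Mki67: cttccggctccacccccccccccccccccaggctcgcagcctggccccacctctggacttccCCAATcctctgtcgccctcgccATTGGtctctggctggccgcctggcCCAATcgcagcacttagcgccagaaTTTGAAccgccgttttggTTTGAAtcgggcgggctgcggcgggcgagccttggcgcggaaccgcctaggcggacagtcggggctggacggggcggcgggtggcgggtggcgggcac
Ccnb2: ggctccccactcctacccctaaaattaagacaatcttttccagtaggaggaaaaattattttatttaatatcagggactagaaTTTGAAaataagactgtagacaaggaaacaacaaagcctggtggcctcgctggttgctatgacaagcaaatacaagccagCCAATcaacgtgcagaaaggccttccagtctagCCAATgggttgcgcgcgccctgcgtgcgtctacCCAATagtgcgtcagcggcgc
Cdk1: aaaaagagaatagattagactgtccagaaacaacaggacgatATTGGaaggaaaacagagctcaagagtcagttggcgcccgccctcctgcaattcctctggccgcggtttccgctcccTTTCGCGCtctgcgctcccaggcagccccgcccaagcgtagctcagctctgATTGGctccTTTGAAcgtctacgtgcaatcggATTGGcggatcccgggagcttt
Rrm2: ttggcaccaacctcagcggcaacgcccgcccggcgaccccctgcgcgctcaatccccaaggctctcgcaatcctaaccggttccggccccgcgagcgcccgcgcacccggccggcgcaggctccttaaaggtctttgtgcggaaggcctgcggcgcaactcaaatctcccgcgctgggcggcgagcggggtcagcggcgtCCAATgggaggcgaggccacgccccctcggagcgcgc

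The table of promoters held 29 of the 36 members, with 32 starts. A CHR word stood in 5 of 11 mitotic promoters (45.5%), 1 of 10 replication promoters and 1 of 11 G1 promoters, against 16.0% of all 32851 promoters. E2F words were in 3 of 10 replication promoters, 1 of 11 G1 and 1 of 11 mitotic promoters, against 1.53% of all. CCAAT boxes were in 10 of 11 mitotic promoters, 9 of 10 replication promoters and 4 of 11 G1 promoters, against 33.8% of all. In 15 of the 32 windows some bases lie in an exon of the gene, and for E2f1 all 250 do, so its stretch is not shown. The KO to WT ratios of the 5 mitotic genes with a CHR word were 0.394 for Mki67, 0.459 for Ccnb2, 0.528 for Cdc20, 0.822 for Top2a and 1.08 for Cdk1. The 6 without it had ratios from 0.516 for Plk1 to 1.03 for Aurka. The ranges overlapped, and a match to these letters is a description, not a binding site.

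Compared per length, as FPKM (CPM per kb of the union of a gene's exons), the members spanned from Pcna, at 15.5 FPKM in WT and 18.5 in KO, to Bub1, at 0.0809 and 0.0583. Cdk4 was the second most abundant member, at 12.4 FPKM in WT and 10.5 in KO. The median level was 1.31 FPKM in WT and 1.21 in KO for G1 genes, 1.63 and 1.64 for replication genes, and 0.347 and 0.261 for mitotic genes. Mitotic genes had medians of 22 WT and 13 KO reads, so most of their ratios are poorly bounded.

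**Figure D1:**
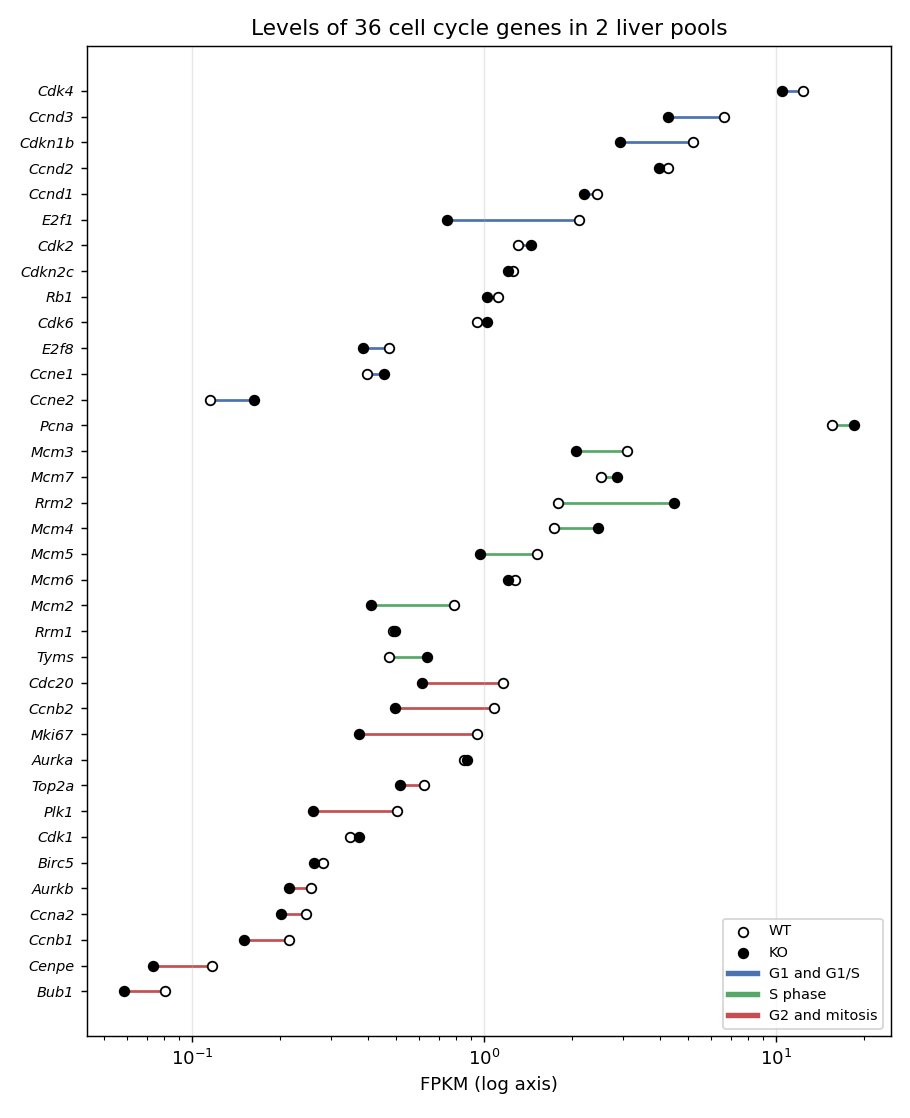
Level of each of the 36 members in FPKM (log axis), with WT as open and KO as filled circles joined by a line coloured by phase. Pcna and Cdk4 are the highest members and Bub1 and Cenpe the lowest; the KO circle lies far to the left for E2f1 and Mki67 and far to the right for Rrm2.

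In all, 3 of the 28 passing members were at least 2-fold lower in KO and 1 was at least 2-fold higher. Over all 13453 passing genes, 11.8% were 2-fold lower and 3.28% 2-fold higher, so the members' shares, 10.7% and 3.57%, lay near those of all genes. The counting interval lay below 1 for 10 members and above 1 for 3, against 37.2% and 26.5% of all genes. For 15 passing members it spanned 1. Once corrected for GC content and length (by the steps described with the processing), the members 2-fold lower were Cdkn1b, Ccnb2 and Mki67, against 6.02% of all genes, and Rrm2 was 2-fold higher, against 3.95% of all. The corrected interval lay below 1 for 8 members, 6 of them among the 10 before, and above 1 for 4, 1 of them among the 3 before, against 29.1% and 27.8% of all genes. The median log2 ratio of the passing members was -0.12, beside -0.07 for all passing genes.

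The 3 phases had different medians. The median log2 ratio was -0.14 for the 12 G1 genes, 0.10 for the 10 replication genes and -0.60 for the 6 mitotic genes that passed, or -0.47 over all 13 mitotic genes without the limit. Genes of like GC content and length had median log2 ratios of -0.08, 0.07 and 0.07 beside these 3 groups. With that correction the medians were -0.02, -0.07 and -0.59. A ratio below 1 was found for 4 of the 6 mitotic genes that passed, beside 7333 of the 13453 passing genes, and for all 7 under 1 CPM, each with an interval that spans 1. Without the limit this is 11 of 13, beside 12490 of the 25385 genes with a read in either library, whose median log2 ratio was 0.02. Summed reads gave 216.1 CPM in WT and 171.4 in KO for G1 genes, a ratio of 0.793 (0.756 to 0.833), or 0.921 after the correction. Replication genes summed to 97.0 and 107.7 CPM, a ratio of 1.11 (1.04 to 1.19), and mitotic genes to 28.9 and 18.8 CPM, a ratio of 0.649 (0.562 to 0.748). After the correction these ratios were 1.07 for replication and 0.627 for mitotic genes. No corrected interval was computed for summed reads. No test between the phases was possible with 1 library per genotype.

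Single genes carried part of each sum. Mki67 held 32.9% of mitotic reads in WT and 19.9% in KO, and without it the ratio of the mitotic sum was 0.774 (0.656 to 0.913). Pcna held 38.5% of replication reads in WT and 41.2% in KO. Without Rrm2 the ratio of the replication sum was 1.04 (0.967 to 1.11), and without both Pcna and Rrm2 it was 0.930 (0.848 to 1.02), so that the interval above 1 rests on these genes. Ccnd3 held 27.0% and 21.8% of G1 reads, and the G1 ratio without it was 0.850 (0.804 to 0.899).

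**Figure D2:**
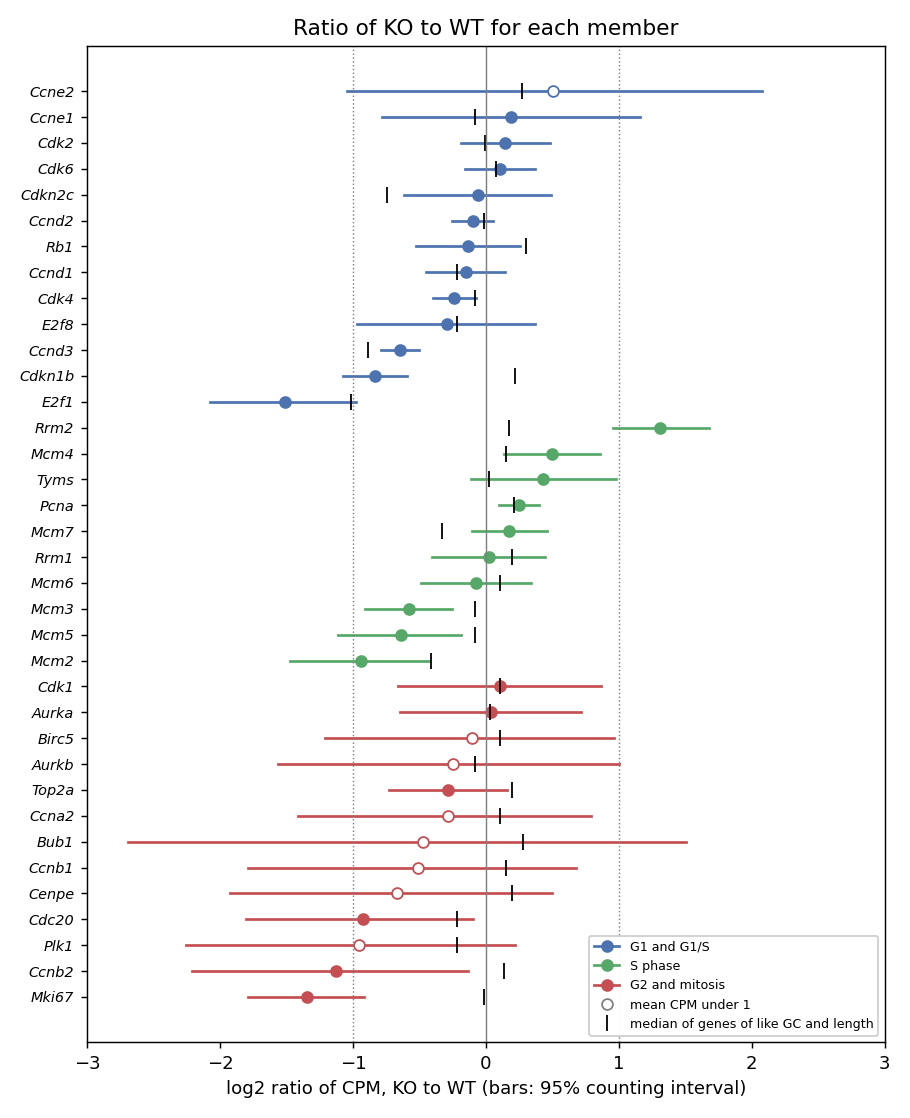
KO to WT ratio of CPM for each member on a log2 scale, ordered within each phase, with 95% counting intervals as bars, open circles for members under a mean of 1 CPM and black ticks for the median of genes of like GC content and length. Rrm2 stands to the right, E2f1, Mki67 and Ccnb2 past the left dotted line at 2-fold, and the E2f1 interval reaches its black tick while the Cdkn1b and Mki67 intervals do not.

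Among the G1 genes, the D cyclins sense growth signals. Ccnd1 had 228 WT and 163 KO reads, or 11.5 and 10.3 CPM, a ratio of 0.902 (0.733 to 1.11). Ccnd2 had 40.0 and 37.3 CPM, a ratio of 0.933 (0.837 to 1.04). For both, the interval spans 1, and the correction turned Ccnd1 from a log2 ratio of -0.15 to 0.07 (-0.23 to 0.36). Ccnd3 had 1161 and 589 reads, or 58.4 and 37.4 CPM, and was 1.56-fold lower in KO (1.41 to 1.73). Its transcript is rich in GC, at 56.7%, and its exons cover 8775 bases. Genes of like GC content and length had a median log2 ratio of -0.89, lower than its own -0.64. By GC content alone, the bin with a median of 56.4% lay at -0.52, above it. After the correction Ccnd3 was at 0.25 (0.10 to 0.39), so its direction depends on it. Of the summed D cyclin FPKM, Ccnd3 made up 49.9% in WT and 40.9% in KO, Ccnd2 31.9% and 38.0%, and Ccnd1 18.3% and 21.1%. Exons of Ccnd1 overlap those of LTO1 on the other strand over 23.4% of their length, and the sources used here do not state the strand setting.

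The partner kinases had ratios closer to 1. Cdk4 had 40.2 and 34.1 CPM (WT, KO), a ratio of 0.849 (0.759 to 0.948), just below 1, but its corrected log2 ratio of -0.15 had an interval from -0.31 to 0.01; 19.7% of its exon length is shared with the more abundant antisense gene Tspan31, so its count is uncertain. Cdk6 had 13.3 and 14.3 CPM, a ratio of 1.08 (0.896 to 1.29), and Cdk2 had 8.16 and 9.02 CPM, a ratio of 1.11 (0.876 to 1.39). Both intervals span 1. The E cyclins, partners of Cdk2, had few reads. Ccne1 had 21 and 19 reads and Ccne2 8 and 9, and together they had a ratio of 1.22 (0.698 to 2.12).

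The inhibitors of these kinases differed from each other. Cdkn1b, which encodes p27 and holds resting cells out of the cycle, had 471 WT and 210 KO reads. This is 23.7 and 13.3 CPM, 1.78-fold lower in KO (1.51 to 2.10). Genes of like GC content and length lay at a median log2 ratio of 0.22, and the log2 ratio of Cdkn1b, -0.83, became -1.05 after the correction, past 2-fold. Cdkn2c, which encodes the Cdk4 and Cdk6 inhibitor p18, had 67 and 51 reads, and its KO to WT ratio was 0.960 (0.654 to 1.40), but its corrected log2 ratio was 0.68 (0.13 to 1.23).

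Rb1, the brake on E2F, had 134 WT and 97 KO reads, a KO to WT ratio of 0.913 (0.696 to 1.19), and its corrected log2 ratio was -0.43 (-0.82 to -0.04). E2f1, an activating E2F factor (ENSMUSG00000027490, GRCm38 chromosome 2, 154559407 to 154569892, minus strand), had 133 and 37 reads, or 6.70 and 2.35 CPM, and was 2.85-fold lower in KO (1.97 to 4.22). It has the highest GC content of the members, 58.3%, and genes like it in GC content and length had a median log2 ratio of -1.02. After the correction its log2 ratio of -1.51 became -0.50 (-1.06 to 0.04), short of 2-fold and with an interval that spans 0. E2f8, a repressor of E2F targets, had 51 and 33 reads, and its KO to WT ratio was 0.816 (0.510 to 1.29).

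In the replication group, the 6 subunits of the MCM2-7 helicase differed in their ratios. Mcm2 had 109 WT and 45 KO reads, a KO to WT ratio of 0.521 (0.359 to 0.743). Mcm3 had 230 and 122 reads, and its KO to WT ratio was 0.669 (0.533 to 0.837), and Mcm5 had 120 and 61, a ratio of 0.641 (0.463 to 0.880). These 3 were lower in KO beyond counting error. Mcm4 had 124 and 139 reads, and its KO to WT ratio was 1.41 (1.10 to 1.82), above 1 beyond counting error before the correction. Mcm6, with 118 and 89 reads, and Mcm7, with 222 and 199, had ratios of 0.951 (0.714 to 1.26) and 1.13 (0.929 to 1.38). After the correction, Mcm2, Mcm3 and Mcm5 lay at log2 ratios of -0.53, -0.50 and -0.56, each with an interval below 0. Mcm4 then lay at 0.35 (-0.01 to 0.71), no longer beyond counting error, and Mcm7 at 0.50 (0.22 to 0.79), now beyond it. The summed helicase reads had a ratio of 0.895 (0.809 to 0.990), or 0.967 after the correction, for which no interval was computed.

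Ribonucleotide reductase makes deoxynucleotides from a large subunit, Rrm1, and a small subunit, Rrm2, whose amount is tied to S phase. Rrm2 (ENSMUSG00000020649, chromosome 12, 24708241 to 24714146, plus strand) had 99 WT and 195 KO reads, or 4.98 and 12.4 CPM. It was 2.48-fold higher in KO (1.94 to 3.20), the one member past 2-fold in that direction. Genes of like GC content and length lay at 0.17, and its log2 ratio of 1.31 was 1.14 after the correction. Rrm1 had 107 and 86 reads, 5.39 and 5.46 CPM, a ratio of 1.01 (0.754 to 1.36), and the Rrm1 and Rrm2 intervals do not overlap. The correction turned Rrm1 from a log2 ratio of 0.02 to -0.18 (-0.60 to 0.25). As a share of the summed FPKM of both subunits, Rrm2 made up 78.6% in WT and 90.01% in KO.

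Pcna, the sliding clamp, had 741 WT and 699 KO reads, or 37.3 and 44.4 CPM, a ratio of 1.19 (1.07 to 1.32). Genes of like GC content and length had a median log2 ratio of 0.21, and Pcna, at 0.25, was at 0.04 (-0.11 to 0.19) after the correction. Over 51.5% of its longest transcript it is 99.2% identical to the pseudogene Pcna-ps2, which was given 17 and 7 reads. Tyms, which makes thymidylate, had 57 and 61 reads, and its KO to WT ratio was 1.35 (0.925 to 1.97).

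Among the mitotic genes, Mki67, the gene of the proliferation antigen Ki-67 that coats mitotic chromosomes (ENSMUSG00000031004, chromosome 7, 135689784 to 135716361, minus strand), had 189 WT and 59 KO reads. This is 9.51 and 3.75 CPM, 2.54-fold lower in KO (1.89 to 3.46). Its GC content of 46.6% is below the median of all passing genes, 49.7%, and genes like it lay at -0.01, so that its log2 ratio of -1.34 was -1.33 after the correction. Top2a, the topoisomerase that untangles sister chromosomes, had 112 and 73 reads, and its KO to WT ratio was 0.822 (0.604 to 1.11), and its corrected log2 ratio was -0.48 (-0.92 to -0.04). Its uncorrected interval does not reach that of Mki67, but the corrected intervals overlap, as that of Mki67 runs from -1.78 to -0.90.

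The cyclins of G2 and mitosis had few reads. Ccnb2 had 33 WT and 12 KO reads, 2.18-fold lower in KO (1.10 to 4.64), and its log2 ratio of -1.12 was -1.26 after the correction. Ccnb1 had 18 and 10 reads and Ccna2 20 and 13, with intervals from 0.289 to 1.60 and from 0.375 to 1.73. Near-identical copies of Ccnb1 in the genome, such as Ccnb1-ps with 6 and 0 reads, make its count uncertain. The 3 cyclins together had 71 and 35 reads, and their KO to WT ratio was 0.622 (0.402 to 0.945). Cdk1, their kinase, had 34 and 29 reads, or 1.71 and 1.84 CPM, a ratio of 1.08 (0.632 to 1.82). Its log2 ratio of 0.11 was -0.0006 after the correction (-0.77 to 0.76).

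Of the genes that run the spindle and its checkpoint, Cdc20, the activator of the anaphase-promoting complex, had 43 WT and 18 KO reads, a KO to WT ratio of 0.528 (0.287 to 0.935), and its corrected log2 ratio of -0.70 had an interval that spans 0 (-1.58 to 0.12). Aurka, a kinase of the spindle poles, had 43 and 35 reads, 2.17 and 2.22 CPM, a ratio of 1.03 (0.638 to 1.64). The other 5 had at most 22 reads in either library and intervals that span 1. Plk1, a kinase of mitotic entry, had 22 and 9 reads; Birc5, which encodes survivin, had 19 and 14; Aurkb, its partner kinase, had 15 and 10. The kinetochore motor gene Cenpe had 20 and 10 reads, and the checkpoint kinase gene Bub1 had 7 and 4. All 7 mitotic genes under 1 CPM together had 121 and 70 reads, and their KO to WT ratio was 0.730 (0.536 to 0.987).

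**Figure D3:**
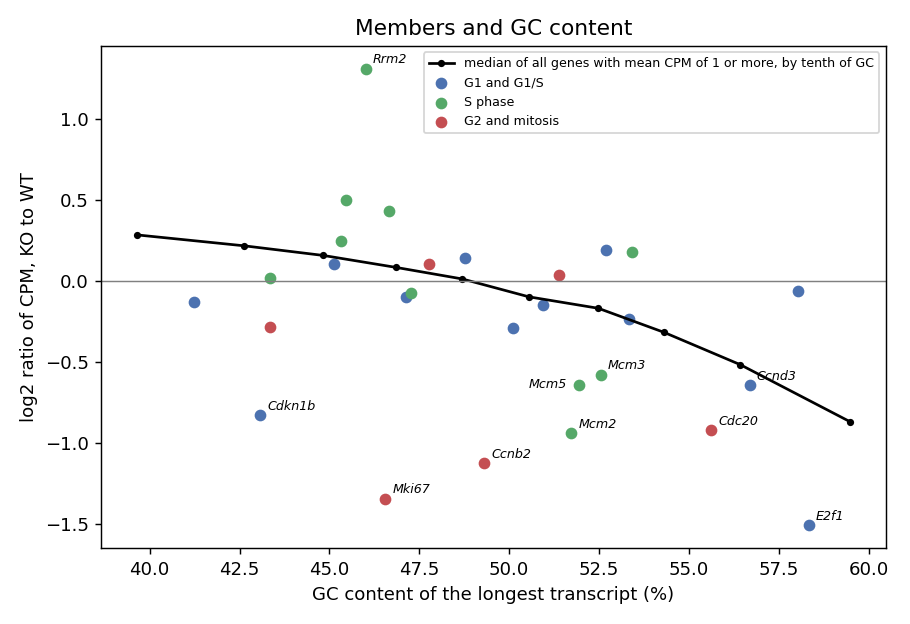
Log2 ratio of KO to WT against the GC content of the longest transcript for the 28 members with a mean of 1 CPM or more, coloured by phase, with the median of all such genes in 10 bins of GC content as a black line. Mki67, Ccnb2 and Cdkn1b lie far below the line and Rrm2 far above it, whereas Ccnd3 lies near the line.

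Other genes of the same processes, 128 in 5 lists, were read in the same way, and 97 of them passed 1 CPM. Of these 6 were at least 2-fold lower, Incenp, Espl1, Uhrf1, Pkmyt1, Pold1 and Tpx2, and 1 was at least 2-fold higher, Prim1. The shares were 6.19% and 1.03%, below the 11.8% and 3.28% of all passing genes. After the correction Espl1, Pkmyt1 and Pold1 were no longer past 2-fold, which left 3.09% lower, beside 6.02% of all genes. The median log2 ratio was 0.05.

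The mitotic list of 41 other genes had a median near that of all genes, unlike the mitotic members, a difference that was not tested. The 26 that passed had a median log2 ratio of 0.04, with 14 above and 12 below 0, and their GC corrected median was 0.00. Incenp, a scaffold of the Aurora B complex, had 64 WT and 13 KO reads, 3.90-fold lower in KO (2.13 to 7.73), and Espl1, the separase gene, had 34 and 8 reads, 3.37-fold lower (1.53 to 8.43), which became 1.82-fold after the correction with an interval that spans 1. At the other end Cks2, a small partner of Cdk1, had 134 and 210 reads, 1.98-fold higher (1.58 to 2.47), and Ect2, a regulator of cytokinesis, had 21 and 29 reads. Summed over the 41 genes the ratio was 1.13 (1.07 to 1.20). In a split chosen after the data were seen, 4 genes with a mean of 5 CPM or more had a summed ratio of 1.37 (1.28 to 1.48), or 1.255 after the correction. The 37 below that had 0.842 (0.767 to 0.923), or 0.935 after the correction. The 11 mitotic members below 5 CPM, summed in the same way, had 0.755 (0.618 to 0.919), or 0.738 after the correction. The uncorrected intervals of the 2 sums below 5 CPM overlap. No corrected interval was computed for these sums, so whether they stay off 1 after the correction is not given.

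Of 21 genes that license and fire replication origins, 14 passed, with a median log2 ratio of 0.50; 0 were past 2-fold and 6 had an interval above 1 (42.9%, beside the 26.5% of all genes). After the correction the median was 0.29 and 3 had an interval above 1 (21.4%, beside 27.8%). Without the limit of 1 CPM the median was 0.11. Then 4 genes were 2-fold lower and 1 higher (19.05% and 4.76%, beside 19.98% and 19.79% of all genes). Orc6 and Orc5, of the origin recognition complex, had ratios of 1.74 (1.16 to 2.61) and 1.64 (1.20 to 2.25), while Dbf4, the activator of the Cdc7 kinase, and the loading factor Cdt1 had 0.666 (0.361 to 1.19) and 0.712 (0.512 to 0.984). The correction turned Cdt1 from a log2 ratio of -0.49 to 0.53 (0.05 to 0.99), left Orc5 at 0.41 (-0.04 to 0.87) and took Dbf4 to -0.89 (-1.77 to -0.05). In the list of the fork and polymerases, 25 passed with a median of -0.05, which the correction turned to 0.14. Prim1, the catalytic primase subunit, had 22 and 45 reads, and its KO to WT ratio was 2.58 (1.52 to 4.51), and Rnaseh2a had 1.57 (1.35 to 1.84). Uhrf1, which couples DNA methylation to replication, had 50 and 12 reads, 3.30-fold lower (1.74 to 6.82), and Pold1, the catalytic subunit of polymerase delta, was 2.48-fold lower (1.85 to 3.37), with a log2 ratio of -1.31 that became -0.07 after the correction.

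Other G1 regulators and the genes of deoxynucleotide supply had medians of 0.01 over 20 genes and 0.13 over 12, with none past 2-fold. After the correction these medians were -0.04 and 0.05. The G1 list ran from Cdkn2d, a kinase inhibitor, at a ratio of 0.583 (0.455 to 0.744), and the repressor E2f6 at 0.607 (0.489 to 0.751) to Lin37 at 1.51 (1.19 to 1.93) and Ccnh at 1.58 (1.29 to 1.94). The supply list ran from Dut, which removes dUTP, at 0.673 (0.506 to 0.891) and Samhd1, which degrades deoxynucleotides, at 0.760 (0.721 to 0.801) to Cmpk1 at 1.27 (1.17 to 1.38) and Rrm2b, the p53-induced relative of Rrm2, at 1.49 (1.10 to 2.01). After the correction the log2 ratios of Cmpk1 and Rrm2b were 0.07 (-0.05 to 0.19) and 0.31 (-0.13 to 0.75).

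**Figure D4:**
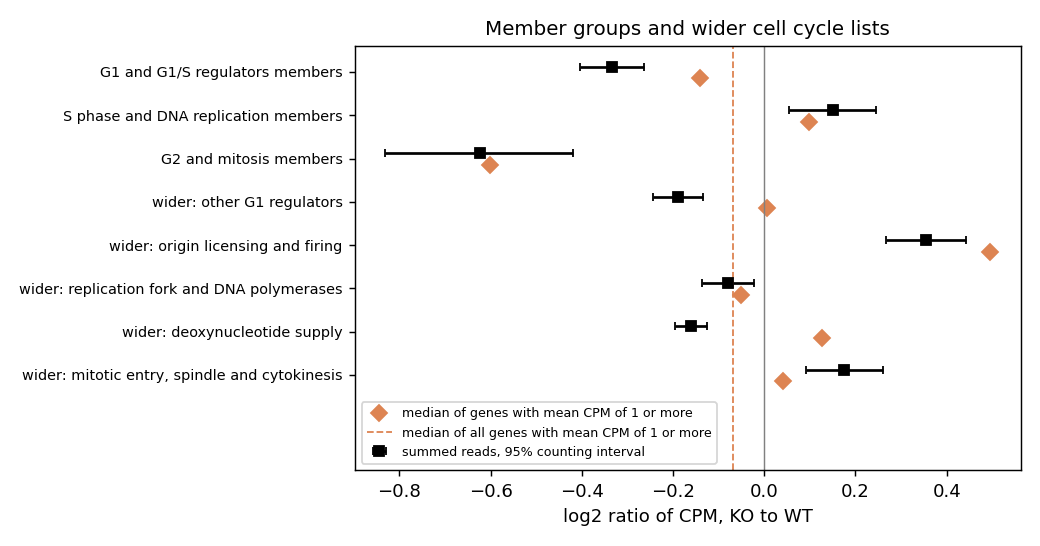
KO to WT log2 ratio for the 3 member groups and 5 wider lists, as the ratio of summed reads with its 95% counting interval (black squares) and the median of genes with a mean of 1 CPM or more (orange diamonds); the dashed line is the median of all such genes. The G2 and mitosis members lie lowest, at a median of -0.60, and the wider mitotic list at 0.04.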

How the data were processed

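Counts: the authors deposited 1 table per library of whole-number read counts per gene, named FPKM in the files but not FPKM by their values, with unequal totals and 2707 genes holding a single WT read. TopHat2, GRCm38 and HTSeq 0.6.1 are named in the submitters' processing notes; which annotation was counted, whether strand was used and what was filtered are not given in the sources. Of 52845 entries per file, 209 named no annotated gene (0.652% of counts in WT, 0.496% in KO) and were left out. Symbols, exon lengths and GC content of the longest transcript came from GENCODE M21, in which 147 Ensembl entries were not found, and promoters from RefSeq.

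CPM, FPKM, ratios and exact intervals were computed here with Python 3.11.15, numpy 2.4.6, pandas 2.3.3 and scipy 1.17.1; edgeR 4.0.16 in R 4.3.3 gave TMM factors only, and blastn 2.17.0 near-identical copies (95% identity over 200 bases or more). A 2-fold ratio among genes with a mean of 1 CPM or more served as a rule of size. The GC correction took from each gene the median log2 ratio of genes with 100 or more reads in 10 GC bins by 4 length bins; it also removes real differences that go with GC content or length. The steps were tested on simulated counts. The members and lists were chosen with earlier results of these data known. Named were all members, the 2 highest and 2 lowest passing genes of each wider list and the top or relevant markers; Cdk1's promoter, Pkmyt1, Tpx2, Mcm10, Skp2, Ttk, Fen1 and Kif11 were chosen after their values were seen.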

Additional observations from a re-analysis of the deposited data

How the results depend on the processing

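No paired analysis was possible because each genotype was 1 library, and no library could be left out. Under TMM, median ratio, totals without mitochondrial genes and protein-coding genes only, the log2 ratio changed sign in 0 of 28 members. Totals without the 50 most abundant genes shifted the median of all genes by 0.10 (log2), changed the sign of 3 members near 0 (Ccnd2, Cdkn2c, Mcm6) and moved the summed log2 ratio to -0.10 for all members, -0.23 for G1 and 0.25 for replication genes. The GC content and length correction moved it to -0.089 for all and -0.12 for G1 members, reversed Ccnd3 to 0.25, changed the sign of Ccnd1, Cdkn2c, Rrm1 and Cdk1, whose intervals span 1 before it, and left 2 G1 genes with an interval above 1 and 2 below. Each pair is 16.7% of the passing G1 genes, beside 27.8% of all genes above and 29.1% below. With a mean of 5 CPM or more, 1 member was 2-fold lower (0 in G1, 1 in mitosis). An interval below 1 was then held by 5 members (1 in replication, 1 in mitosis). These are 5.88% and 29.41% of the 17 members left, beside 11.04% and 42.29% of the 9982 genes at that level. With 1 FPKM added, 0 members were 2-fold lower (0 in G1, 0 in mitosis) and 0 higher (0 in replication); this understates low genes. Of all genes, 5.17% were then 2-fold lower and 0.781% higher. At 1.5-fold, 8 members were lower (3 in G1, 2 in replication), or 28.6% beside 24.3% of all genes. Of the 128 wider genes, 2-fold higher were 2 under TMM, 2 without mitochondrial genes, 2 without the 50 most abundant, 6 with no filter, 0 at 5 CPM, 0 with 1 FPKM added and 11 at 1.5-fold. In that order these are 2.06%, 2.06%, 2.06%, 4.72%, 0%, 0% and 11.3% of the wider genes that passed. The shares of all genes were 3.60%, 3.47%, 4.39%, 19.8%, 1.31%, 0.781% and 10.9%. Of the wider genes, 2-fold lower were 3 after the GC correction, 16 with no filter, 1 at 5 CPM, 0 with 1 FPKM added and 16 at 1.5-fold. In that order these are 3.09%, 12.6%, 2.17%, 0% and 16.49% of the wider genes that passed. The shares of all genes 2-fold lower were 6.02%, 19.98%, 11.04%, 5.17% and 24.32%. An interval below 1 was held by 14 wider genes after the GC correction and 13 at 5 CPM. These are 14.43% and 28.26% of those that passed, beside 29.14% and 42.29% of all genes. Apart from the filters, the added FPKM and the threshold, which follow from their construction, the cause was not tested. Depth limits the mitotic genes most, with 7 of 13 under 1 CPM.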

Other observations

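One gene of the licensing list held much of its reads. Mcm10, a replication initiation factor (ENSMUSG00000026669, GRCm38 chromosome 2, 4989714 to 5012791), had 879 reads in WT and 1027 in KO, which is 41.6% and 47.9% of the reads of that list of 21 genes, and 5.75 and 8.48 FPKM. It was thus more abundant per length than each of the 6 MCM2-7 subunits, the highest of which, Mcm3, had 3.09 FPKM in WT. Its ratio was 1.47 (1.34 to 1.61). Without Mcm10 the list had a ratio of 1.14 (1.05 to 1.24).

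Several genes of the wider lists had almost no reads where the members had some. Skp2, the F-box protein that marks the Cdkn1b product for destruction, had 0 reads in both libraries, which allows up to 3 reads, 0.151 CPM in WT and 0.190 in KO. Kif11, the spindle motor, had 1 and 0 reads, Ttk, a checkpoint kinase, 0 and 2, and Fen1, the flap endonuclease of lagging strands, 4 and 1. Of the exon length of Fen1, 78.8% is overlapped by the antisense gene Gm10143, with 1 and 3 reads, and 5.37% by Tmem258, so that its count is uncertain with an unknown strand setting.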
